A study of Homo sapiens with 11 samples.

Results

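The genes described here carry out or control cholesterol synthesis, or move sterols and set how long lipoprotein receptors last. They were chosen by name and not by their values: 27 symbols were listed, and a gene was measured where at least 1 probe set was annotated to its symbol alone. That gave 25 of the 27 genes, read by 57 probe sets, among 19775 genes on the array. The other two were the squalene synthase gene FDFT1, which was not analysed here, and the sterol demethylase gene CYP51A1, whose 2 probe sets are also annotated to LRRD1. Of the 25 genes, 10 had 1 probe set and 15 had several, up to 6 for MYLIP.

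Cells build cholesterol from acetyl-CoA through mevalonate, isoprenoid diphosphates, squalene and lanosterol. When sterol runs low in the endoplasmic reticulum, SCAP escorts the precursors of the SREBP transcription factors to the Golgi apparatus, where they are cut, and the released factors switch on most genes of the pathway. When sterol is plentiful, the INSIG proteins hold SCAP back, and sterol-activated LXR receptors induce efflux genes and MYLIP, a ubiquitin ligase that marks lipoprotein receptors for breakdown. Breast cancer cells of many kinds use this pathway for membranes and for prenylated signalling proteins.

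Expression was read in the human cell line MDA-MB-231, which derives from a triple-negative breast cancer, with 11 arrays (Affymetrix HG-U133 Plus 2.0) from 9 groups. A 4 h preincubation with 10% serum stripped by charcoal, which takes out steroids and much lipid, came first, and each exposure, or the change of medium in the controls, lasted 3 h. The groups were an untreated control (2 arrays), E2-BSA at 1 µM (2 arrays), and 1 array each of ethanol at 0.1%, estradiol at 1 µM, ICI at 10 µM, G15 at 10 µM, E2-BSA together with either antagonist at these doses, and BSA at 1 µM. E2-BSA is albumin of bovine serum carrying linked estradiol, meant to act at the cell surface; BSA is that carrier without hormone, G15 is an antagonist of the membrane estrogen receptor GPER, and ICI is an antagonist given only by that abbreviation. The labels did not say whether duplicate arrays came from separate cultures, so p-values cannot be taken to measure the spread between cultures. The 7 groups read once have no spread of their own. The deposited values were centred on 0 for each probe set, so a gene has differences between arrays but no level, and neither the identity of the cells nor a gene's abundance could be checked from marker levels. RNA came from whole cultures, so fewer cells making a transcript and less transcript per cell cannot be told apart.

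Each array was shifted so that its median gene was at 0 against the genes' means, and every difference below is on the log2 scale. Differences between single arrays are given against the median gene of that difference, so that -0.5 means lower than the median gene by 0.5. Bacterial poly-A transcripts, spiked in as labelling controls, parted the arrays into a set of 3 (the first control, estradiol and first E2-BSA arrays, at 1.40 to 1.62) and a set of 8 (-0.57 to 0.10). Tests used limma over all 19775 genes with a term for each treatment and for the set. It left 3 residual degrees of freedom, and p-values took Benjamini-Hochberg adjustment at 0.05. The ethanol, estradiol and BSA arrays were fitted exactly. The 3 residual degrees of freedom were thus the scatter of the E2-BSA difference over its 4 matched pairs, antagonist backgrounds included. Every p-value of this fit, also for BSA, ethanol and the sets, sets a difference against that scatter, moderated over genes. The 3 prime minus 5 prime signal of ACTB, a sign of RNA integrity and labelling, ranged from -0.31 to 0.35 over the arrays, and that of GAPDH from -0.15 to 0.08.

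E2-BSA was set against its matched array without it in 4 pairs that share no array: the first and the second E2-BSA and control arrays, E2-BSA with ICI against ICI, and E2-BSA with G15 against G15. Sterol genes lay mostly below the median gene, by small amounts: 18 of 25 were lower in the first pair (median -0.13), 17 in the second (-0.08), 18 with ICI (-0.03) and 15 with G15 (-0.03), where the median of all genes is 0 by construction. In the fit over all arrays, whose E2-BSA term averages the 4 pairs, 21 of the 25 genes were below 0, with a median of -0.10, beside -0.01 over all genes and 10421 of 19775 below 0. None passed: limma called 0 of 25 members and 0 of 19775 genes (0%), with 0 members and 1006 genes at an unadjusted p under 0.05. The smallest adjusted p of a member was 0.859, and the median standard error of a member, 0.08, was close to the size of the median difference. The arrays without E2-BSA held no BSA, so hormone and carrier cannot be told apart in these pairs. For BSA alone the same fit put 18 of 25 members below 0, with a median of -0.11. As a single-array difference against the second control, described below, 21 of 25 members were below the median gene, with a median of -0.10. That control array also serves in the second E2-BSA pair, so the BSA and E2-BSA values stand side by side only.

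Of the members, 5 were below the median gene in all 4 pairs (20%), where 6.96% of all genes were, and 0 were above it in all 4, where 7.08% of all genes were. They were HMGCS1, which makes HMG-CoA for the mevalonate arm, FDPS, which makes farnesyl diphosphate, HSD17B7, a ketoreductase of the late pathway, INSIG1, the SREBP-induced brake on SCAP, and STARD4, a carrier that moves cholesterol between membranes. The count depended on the reference: it was 3 after quantile normalization (HMGCS1, INSIG1 and STARD4), where 6.94% of all genes were lower in all 4. It was 9 when deposited values were read against 0, where 8.26% of all genes were. It stayed at 5 under both other ways of joining probe sets, where 6.76% and 6.79% of all genes were lower in all 4, but with other genes. The median of the probe sets put EBP in place of INSIG1. Without _x_at and _s_at probe sets, which leaves none for HSD17B7, the genes were HMGCS1, FDPS, SQLE, LSS and STARD4. HMGCS1 and STARD4 were among the genes under each of these settings. The probe-set settings could hardly change this. STARD4 has 1 probe set, of neither kind left out, and HMGCS1 has 2, whose median is their mean. Leaving out _s_at probe sets removed the HMGCS1 probe set at 0.46 in the G15 pair. The one kept was at -0.09, -0.59, -0.07 and -0.52 in the 4 pairs. The upstream 250 bases of these genes are shown because the 5 genes were picked out together by the pairs; they come from RefSeq (GRCh38.p14), 5′ to 3′ on the strand of the gene and ending just before its start, with matches to the NF-Y box CCAAT on either strand (ATTGG on the other) in capitals. The windows are chr1:155308616-155308865 (plus strand) for FDPS, chr5:43313413-43313662 (minus strand) for HMGCS1, of whose 2 listed starts the one with more matches is shown, chr1:162790452-162790701 (plus strand) for HSD17B7, chr7:155297628-155297877 (plus strand) for INSIG1 and chr5:111512536-111512785 (minus strand) for STARD4.
FDPS: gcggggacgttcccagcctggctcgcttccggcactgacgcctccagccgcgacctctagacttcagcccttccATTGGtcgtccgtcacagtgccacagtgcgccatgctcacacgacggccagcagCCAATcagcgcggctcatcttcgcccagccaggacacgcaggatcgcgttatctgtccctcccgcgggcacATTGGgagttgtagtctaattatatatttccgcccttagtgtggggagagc
HMGCS1: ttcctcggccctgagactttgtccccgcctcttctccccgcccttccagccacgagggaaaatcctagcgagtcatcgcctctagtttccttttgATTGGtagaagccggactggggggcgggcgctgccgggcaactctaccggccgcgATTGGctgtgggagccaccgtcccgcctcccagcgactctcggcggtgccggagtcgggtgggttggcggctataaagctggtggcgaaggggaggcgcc
HSD17B7: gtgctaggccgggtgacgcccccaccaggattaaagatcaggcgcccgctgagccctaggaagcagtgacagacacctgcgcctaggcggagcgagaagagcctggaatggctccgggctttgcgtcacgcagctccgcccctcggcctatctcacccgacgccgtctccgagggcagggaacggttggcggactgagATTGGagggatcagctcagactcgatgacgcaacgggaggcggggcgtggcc
INSIG1: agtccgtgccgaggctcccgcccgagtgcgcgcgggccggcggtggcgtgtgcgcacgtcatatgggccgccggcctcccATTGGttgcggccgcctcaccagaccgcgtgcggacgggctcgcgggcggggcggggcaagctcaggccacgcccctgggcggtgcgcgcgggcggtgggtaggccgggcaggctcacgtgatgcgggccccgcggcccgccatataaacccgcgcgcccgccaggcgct
STARD4: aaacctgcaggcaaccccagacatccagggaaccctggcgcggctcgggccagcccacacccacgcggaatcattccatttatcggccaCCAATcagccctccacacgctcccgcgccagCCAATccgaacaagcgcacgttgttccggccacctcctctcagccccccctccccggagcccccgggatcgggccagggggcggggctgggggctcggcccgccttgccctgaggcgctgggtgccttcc

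NF-Y is a general activator that often binds beside SREBP. A CCAAT match stood in the upstream window of 18 of the 24 listed genes with a promoter in the table (75%), and in 37% of the 27305 genes whose windows were searched. All 5 windows above hold at least 1: FDPS has 3, HMGCS1 and STARD4 have 2 each, and HSD17B7 and INSIG1 have 1 each. The core TCACNCCAC of a sterol regulatory element, searched on both strands, was found in 1 of the 24, SREBF2, and in 1.09% of all genes. It does not overlap the CCAAT match in that window. A match is a string of letters and was not measured as a bound site. Elements spelled otherwise than this core were not searched, so the counts do not say which genes lack one.

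INSIG1 had the smallest p of the members with E2-BSA, at -0.19 ± 0.09 (SE, limma adjusted p = 0.859). The same fit gave -0.10 with the median of its probe sets (adjusted p = 0.878) and -0.09 without _x_at and _s_at probe sets (0.894), and the adjusted p ran from 0.843 to 1 over all alternatives. Its values were 0.15 in the first control and 0.07 in the first E2-BSA array, 0.10 and -0.12 in the second arrays, -0.20 with ICI and -0.22 with both, and -0.03 with G15 and -0.46 with both. The treated and untreated arrays overlapped, and the largest difference, -0.43 with G15, came from 1 of its 3 probe sets (-1.25), the others being at -0.05 and 0.02. HSD17B7 stood at -0.71, 0.56, 0.45 and 0.24 in the first control, second control, ICI and G15 arrays, and at -0.73, 0.30, 0.39 and -0.22 in the matching E2-BSA arrays. Its differences were -0.01, -0.25, -0.06 and -0.46, and the fit gave -0.20 ± 0.09 (adjusted p = 0.859). It is read by 1 probe set of a kind that can also bind related transcripts. Its pseudogene HSD17B7P2 differed by -0.62, -0.29, -0.36 and -0.32 in the same pairs. Against the second control the pseudogene was at 0.16 with ICI and -0.02 with G15, where HSD17B7 was at -0.10 and -0.33. Whether the 2 transcripts were read apart was not tested.

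STARD4 had the most even differences of the 5, at -0.19, -0.22, -0.12 and -0.06, with a mean of -0.15 ± 0.07 (SD over the 4 pairs). Its values were 0.22, 0.06, 0.21 and 0.01 without E2-BSA and 0.03, -0.17, 0.09 and -0.05 with it, so the ranges overlapped. HMGCS1 stood at -0.13, 0.36, 0.26 and 0.16 without and at -0.26, 0.06, 0.13 and 0.14 with E2-BSA. Its mean difference of -0.14 ± 0.11 (SD over the 4 pairs) joined a probe set at -0.32 and another at 0.04, so its 2 probe sets did not share a direction. FDPS differed by -0.34 and -0.14 without an antagonist and by -0.03 in either antagonist background; its values were -0.48, 0.22, 0.22 and 0.27 without and -0.83, 0.07, 0.18 and 0.24 with E2-BSA.

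**Figure D1:**
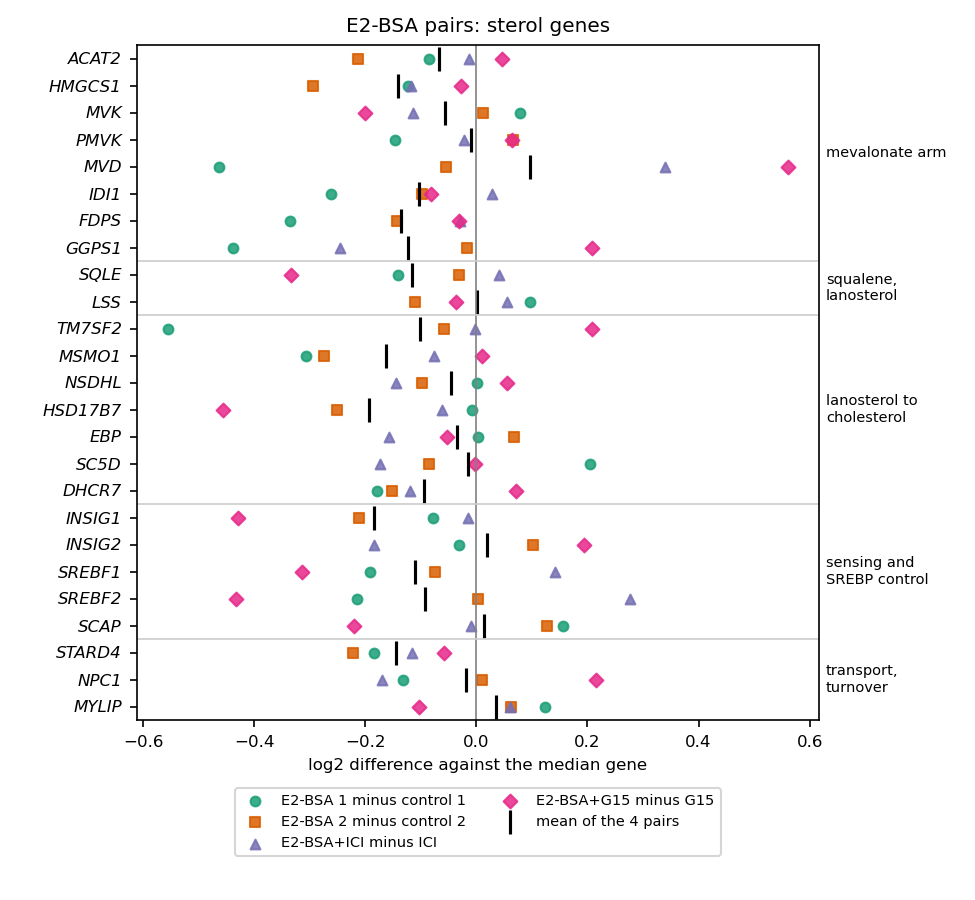
Log2 difference of each sterol gene against the median gene (horizontal axis) in the 4 E2-BSA pairs (coloured symbols, 1 array on either side) with their mean (black bar), the genes ordered by role. Most means lie left of 0, and the 4 symbols of a gene spread further apart than the mean lies from 0 for most genes, as for MVD with -0.46 to 0.56.

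Among the other genes of the mevalonate arm, none passed with E2-BSA. The thiolase gene ACAT2 had a mean difference of -0.07 over the pairs, the kinase genes MVK and PMVK had -0.06 and -0.01, IDI1, which isomerises isopentenyl diphosphate, had -0.10, and GGPS1, which makes geranylgeranyl diphosphate for prenylation, had -0.12. MVD, the decarboxylase that makes isopentenyl diphosphate, spread most, with differences of -0.46, -0.06, 0.34 and 0.56. In the squalene and lanosterol steps, SQLE, the epoxidase, had a mean of -0.12 and LSS, the cyclase, 0.00. SQLE joined 4 probe sets whose means ran from -0.55 to 0.30, and in the G15 background they differed by -1.93, -0.64, 0.52 and 0.71.

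The late steps from lanosterol to cholesterol were all below 0 in the fit, 7 of 7, with a median of -0.10, where 10421 of 19775 genes were below 0. The single pairs were less even: 4 of 7 were lower in the first pair, 6 in the second, 7 with ICI and 3 with G15. SC5D, at -0.02 ± 0.08 (SE), and EBP, at -0.04 ± 0.07, lay closer to 0 than their standard errors. MSMO1, the sterol methyl oxidase, differed by -0.31 and -0.28 without an antagonist and by -0.08 with ICI and 0.01 with G15, with a fitted -0.17 ± 0.08 (SE, limma adjusted p = 0.859). The sterol reductase gene TM7SF2 ranged from -0.56 to 0.21 over the pairs, and DHCR7, the last reductase, from -0.18 to 0.07. NSDHL, EBP and SC5D, a dehydrogenase, an isomerase and a desaturase, had means of -0.05, -0.03 and -0.01. Of the sensing genes, SREBF1 and SREBF2, which encode the SREBP factors, had means of -0.11 and -0.09, the escort SCAP 0.01 and INSIG2, the second brake, 0.02. NPC1, which exports cholesterol from lysosomes, had a mean of -0.02 and MYLIP one of 0.04, each with pairs on both sides of the median gene.

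BSA was set against the second control array, of the same set, to show what the carrier did alone. In it 21 of 25 sterol genes lay below the median gene, with a median of -0.10. The lowest were GGPS1 at -0.91, SREBF1 at -0.60 and IDI1 at -0.51, and the highest were INSIG2 at 0.46, SCAP at 0.31 and EBP at 0.16. Members lower by more than 0.5 numbered 3, where 2.86% of all genes were, and 0 were higher by more than 0.5, where 1.54% were. The fit gave GGPS1 -0.96 ± 0.21 (SE, limma adjusted p = 0.203), SREBF1 -0.62 ± 0.16 (0.313), IDI1 -0.51 ± 0.14 (0.329), INSIG2 0.42 ± 0.15 (0.507) and HMGCS1 -0.36 ± 0.14 (0.545). It called 0 of 25 members and 71 of 19775 genes (0.359%), with 5 members and 1708 genes at an unadjusted p under 0.05.

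Each of the 3 low genes rested on 1 probe set. For GGPS1 one probe set was at -2.33 and the other at 0.51, for IDI1 one was at -1.86 and the other three between -0.25 and 0.13, and for SREBF1 the pair stood at -1.10 and -0.10. With probe sets of the _x_at and _s_at kinds left out, GGPS1 was at 0.45 in the fit and thus had the other sign (adjusted p = 0.665). HMGCS1 differed by -0.44, from 0.36 in the second control to -0.08 in the BSA array, with both probe sets lower (-0.20 and -0.68). INSIG1 was at -0.32 and MSMO1 at -0.33 against the median gene. The BSA array had the highest ACTB 3 prime minus 5 prime signal, 0.35 against -0.15 in the second control, and the part of this in the sterol differences was not tested.

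**Figure D2:**
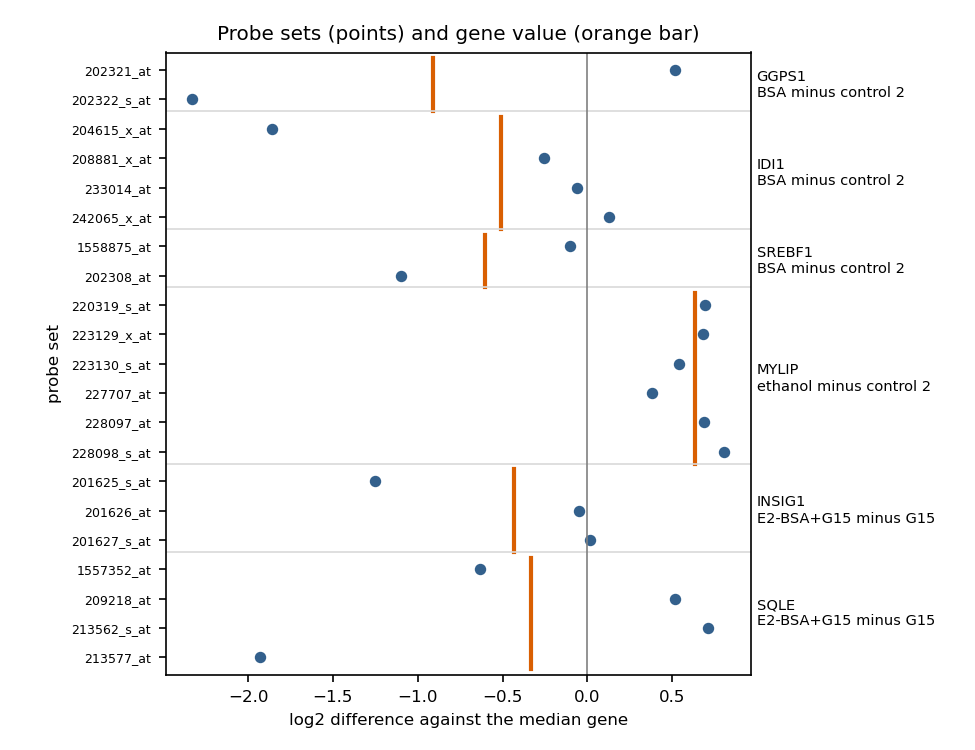
Log2 difference against the median gene for each probe set (points, named on the left) and for the gene as their mean (orange bar), in the comparison named on the right, each of 1 array against 1. The low values of GGPS1, IDI1, SREBF1, INSIG1 and SQLE are carried by 1 or 2 probe sets, whereas the 6 probe sets of MYLIP all lie between 0.38 and 0.81.

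Ethanol, a common solvent for steroids, was read on 1 array and set against the second control array. Most sterol genes lay near the median gene: 13 of 25 were above it and the median was 0.02. MYLIP differed most, at 0.63. Its value was 0.64 with ethanol, and the other 10 arrays ran from -0.22 to 0.06. All 6 of its probe sets were higher, by 0.38 to 0.81. That sets 1 array against 10 for the member that differed most of the 25. How many of all genes had an ethanol array outside the other 10 was not counted. The fit gave MYLIP 0.62 ± 0.13 (SE), which did not pass over all genes (limma adjusted p = 0.33). MYLIP was the 1 member higher by more than 0.5, where 1.62% of all genes were, and 0 were lower by more than 0.5, where 1.77% were. TM7SF2 followed at 0.46 and NPC1 at 0.22, the latter with 1 probe set at 0.86 and the other three between -0.04 and 0.07, while HSD17B7, FDPS and DHCR7 were lowest at -0.14, -0.11 and -0.09. Limma called 0 of 25 members and 15 of 19775 genes (0.0759%), with 1 member and 1347 genes at an unadjusted p under 0.05.

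The start of MYLIP is shown as the member that stood furthest from the other arrays in the ethanol array. Its upstream window, chr6:16128836-16129085 on the plus strand of GRCh38.p14 in RefSeq, holds 2 CCAAT matches, in capitals, and no match to the SREBP core.
MYLIP: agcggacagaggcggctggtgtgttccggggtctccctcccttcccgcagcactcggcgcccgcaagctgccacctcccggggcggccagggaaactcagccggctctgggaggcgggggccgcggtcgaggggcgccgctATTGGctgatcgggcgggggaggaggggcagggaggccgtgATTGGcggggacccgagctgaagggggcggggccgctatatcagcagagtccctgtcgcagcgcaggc

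ICI and G15 were each set against the second control array, which also served for BSA, ethanol and the second E2-BSA pair. The values of all these comparisons share that array and stand side by side only. With ICI 13 of 25 members were below the median gene (median -0.01) and with G15 12 of 25 (median 0.03). In the ICI array MVD was lowest at -0.73, then INSIG1 at -0.30 and SREBF2 at -0.29, and INSIG2, SCAP and PMVK were highest at 0.30, 0.27 and 0.16. In the G15 array MVD was at -0.44, HSD17B7 at -0.33 and MSMO1 at -0.25, and SCAP, PMVK and INSIG2 were at 0.27, 0.24 and 0.17. MVD alone was lower by more than 0.5 with ICI, where 1.63% of all genes were, and 0 members were with G15, where 2.05% were; 0 were higher by more than 0.5 with either, where 0.996% and 0.743% of all genes were.

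The fit averages these arrays with those that also held E2-BSA. In it ICI present against absent gave MVD -0.53 ± 0.22 (SE, limma adjusted p = 0.665), and G15 present against absent gave HSD17B7 -0.42 ± 0.13 and ACAT2 0.27 ± 0.11 (adjusted p = 0.817 for both). Limma called 0 members in either comparison, with 1 and 2 at an unadjusted p under 0.05, and 0 of 19775 genes in either (0%), with 1474 and 1163 at that level. Values of MVD were -0.36 with ICI and -0.06 with G15, -0.03 and 0.50 in the same backgrounds with E2-BSA, and 0.37 and 0.31 in the second control and E2-BSA arrays. It is read by 1 probe set. SREBF2 in the ICI array also rested on 1 of 3 probe sets, at -0.89 beside -0.01 and 0.03. Free estradiol, against the first control of its own set, left the members around the median gene, with 11 of 25 below and a median of 0.02, from -0.39 for MVD to 0.27 for LSS.

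**Figure D3:**
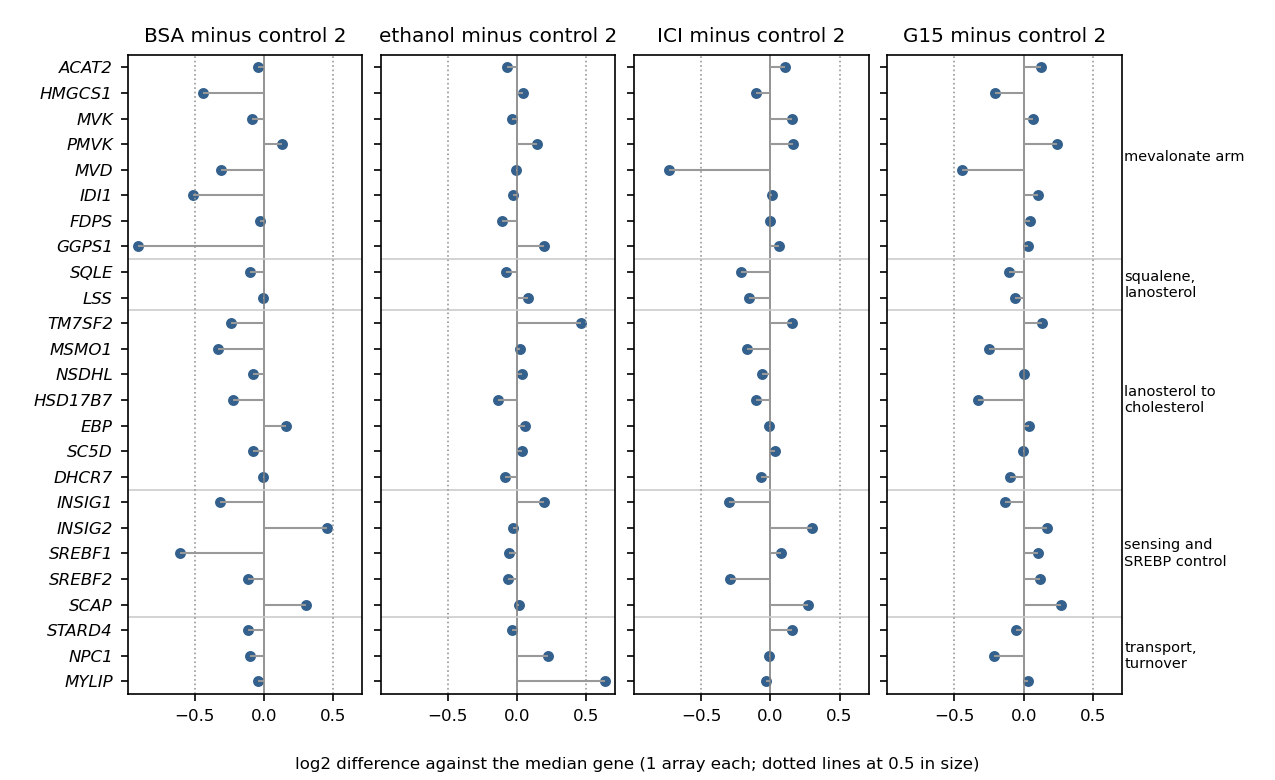
Log2 difference of each sterol gene against the median gene (horizontal axis) for BSA, ethanol, ICI and G15, each 1 array minus the second control array. Points past the dotted lines (0.5 in size) are GGPS1, SREBF1 and IDI1 with BSA, MYLIP with ethanol and MVD with ICI.

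More sterol genes passed between the spike-in sets than for any treatment. In the fit, 10 of 25 sterol genes (40%) passed between the set of 3 and the set of 8, 8 lower and 2 higher in the set of 3, where 24.6% of all genes passed, 13.1% lower and 11.5% higher. The ranges of the sets did not overlap for 12 members (48%), where 32% of all genes did not. HSD17B7 was at -0.73 to -0.61 in the set of 3 and at -0.22 to 0.56 (median 0.36) in the set of 8, a difference of -1.15 ± 0.13 (SE, limma adjusted p = 0.0011). INSIG2 went the other way, at 0.86 to 1.08 against -0.49 to 0.00 (median -0.32), by 1.30 ± 0.12 (adjusted p = 0.000665). FDPS (-0.80), MSMO1 (-0.76), IDI1 (-0.75), ACAT2 (-0.71), SREBF2 (-0.63), HMGCS1 (-0.41) and PMVK (-0.38) were lower as well, and SC5D was higher, by 0.44.

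The arrays behind these differences were apart for each of the 10 but HMGCS1. FDPS ran from -0.83 to -0.48 in the set of 3 and from 0.07 to 0.27 (median 0.20) in the set of 8, and MSMO1 from -0.72 to -0.35 and from 0.00 to 0.35 (median 0.09). IDI1 ran from -0.68 to -0.41 and from -0.26 to 0.37 (median 0.26), its lowest value in the set of 8 being that of the BSA array. ACAT2 lay at -0.59 to -0.34 and 0.06 to 0.46 (median 0.32), SREBF2 at -0.40 to -0.13 and 0.04 to 0.47 (median 0.30), and PMVK at -0.34 to -0.19 and 0.09 to 0.40 (median 0.23). In these 6 genes every array of the set of 3 was below every array of the set of 8. HMGCS1 lay at -0.26 to 0.04 and -0.08 to 0.40 (median 0.15), so that its ranges overlapped, and SC5D at 0.24 to 0.44 and -0.20 to -0.02 (median -0.06).

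The mevalonate arm supplied 5 of these 10 genes, with a median of -0.56 over its 8 members. SREBF2 was lower in all 3 of its probe sets, by -0.66 to -0.61, and IDI1 in all 4, by -1.58 to -0.28. HMGCS1 was lower in 1 of 2, at -0.89 beside 0.08. Other members had probe sets on both sides: SQLE from -1.66 to 1.13, NPC1 from -0.47 to 1.06 and INSIG1 from -0.23 to 0.80. Between the control duplicates and between the E2-BSA duplicates the differences ran the same way for HSD17B7 (-1.28 and -1.03) and INSIG2 (1.36 and 1.23). The labels give no batch, and the sets were read from the spike-ins, so the difference is of array sets and not of a stated condition. With 1 duplicate array left out, 4 to 9 members passed: 9 without the first control, 4 without the second, and 6 without either E2-BSA array. Leaving out _x_at and _s_at probe sets gave 6.

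**Figure D4:**
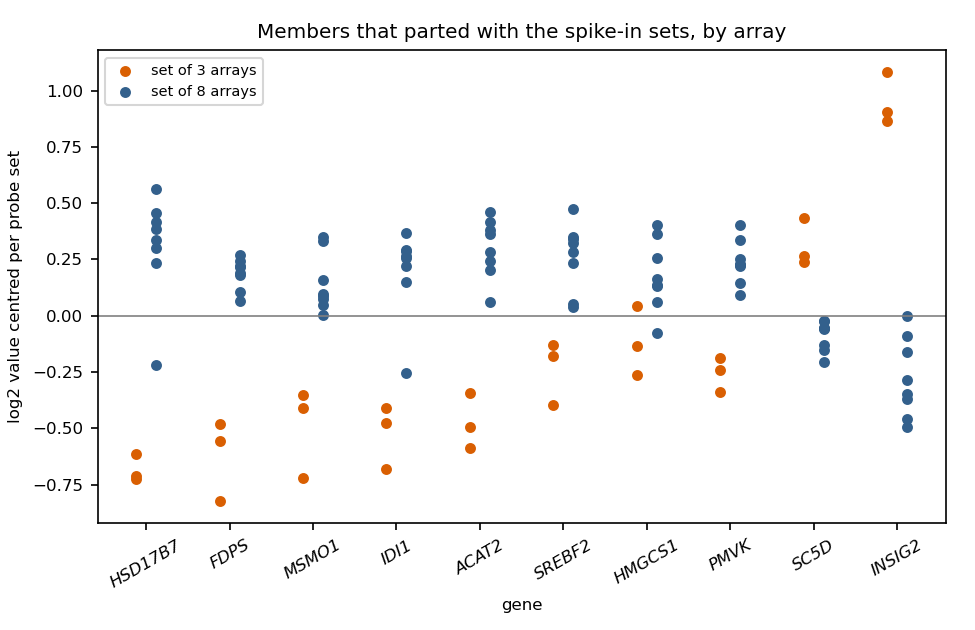
Log2 value, centred per probe set, in each of the 11 arrays (points) for the 10 sterol genes that passed between the spike-in sets, the set of 3 in orange and the set of 8 in blue. INSIG2 and SC5D lie higher in the set of 3 and the other 8 lie lower, HMGCS1 being the gene whose sets overlap.

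Members followed one another in part. Pearson's r of each member with the mean of the others had a median of 0.50 over the 11 arrays, with 15 of 25 above 0, and of 0.32 over the set of 8, with 19 of 25 above 0. The same r of other genes with the mean of all members had a median of -0.02 over the 11 arrays (48.6% above 0) and -0.01 over the set of 8 (49.2%). Within the set of 8, HMGCS1 (0.93), MSMO1 (0.84), SC5D (0.68) and TM7SF2 (0.65) were most like the rest and INSIG2 (-0.75) and SCAP (-0.62) least. Over the 11 arrays HMGCS1 and MSMO1 were at 0.94 and 0.91 as well, but SC5D was at -0.72. FDPS was at 0.72 over the 11 arrays and at 0.01 within the set of 8, and ACAT2 at 0.69 and 0.04. The part of the difference between the spike-in sets in the 11-array values was not tested. These values describe arrays that share treatments, centring and probe chemistry.

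Neighbouring pathways were followed through lists laid down by name. In the fit, genes of fatty acid synthesis under SREBP were below 0 with E2-BSA in 7 of 8 measured cases (median -0.08), where 10421 of 19775 genes were. They ran from ME1, the malic enzyme, at -0.15 ± 0.07 (SE) to ACLY, which supplies acetyl-CoA, at 0.01 ± 0.09. The single pairs were less even: 4 of 8 were below the median gene in the first pair, 6 in the second, 7 with ICI and 5 with G15. LXR targets and sterol efflux genes were above 0 in 4 of 5 (median 0.02), with SMPDL3A lowest at -0.05 and LPCAT3, a lysophospholipid acyltransferase, highest at 0.35 ± 0.09 (limma adjusted p = 0.859). The differences of ABCG1 (0.00 ± 0.07), ABCA1 (0.02 ± 0.09) and NR1H3 (0.07 ± 0.11) were each smaller than their SE. LPCAT3 was above the median gene in all 4 pairs, by 0.25, 0.14, 0.45 and 0.58, and at -0.64 with ICI and -0.24 with G15 against the second control, arrays that also serve in the last 2 pairs. SREBP cleavage and degradation genes (5 of 7 below 0, median -0.01), sterol trafficking and storage genes (5 of 8, -0.03) and isoprenoid use genes (5 of 9, -0.01) stayed near 0. Their ends were ERLIN2 (-0.08) and MBTPS2 (0.03), GRAMD1A (-0.13) and GRAMD1B (0.33 ± 0.17), and the farnesyltransferase subunit gene FNTB (-0.43 ± 0.16) and RABGGTA (0.10). GRAMD1B was at 1.07 in the first pair and at 0.042, 0.146 and 0.075 in the second, ICI and G15 pairs. FNTB was at -0.71 in the first pair and -0.92 with G15, but at 0.01 in the second and -0.08 with ICI.

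None of these lists had a gene past the test for E2-BSA, BSA, ethanol, ICI or G15. The smallest adjusted p was that of RABGGTB, a subunit of the Rab prenylation enzyme, with BSA, at -0.88 ± 0.15 (SE, limma adjusted p = 0.0803). With ethanol the lowest p belonged to COQ2, of ubiquinone synthesis, at -0.48 ± 0.13 (adjusted p = 0.465). Between the spike-in sets, where 13.1% of all genes passed lower and 11.5% higher (24.6% in all), 2 of 8 fatty acid genes passed, a share near that of all genes: the desaturase genes SCD, at 0.79, and FADS2, at -0.54. Of the LXR and efflux genes 2 of 5 were higher, the efflux pump ABCA1 by 1.65 ± 0.13 (SE, limma adjusted p = 0.000491) and SMPDL3A by 0.39. Of the cleavage and degradation genes 5 of 7 were higher, among them MBTPS1 (0.69) and MBTPS2 (0.76), the proteases that cut SREBP, with RNF139 (0.55), UBXN8 (0.52) and ERLIN2 (0.47). Trafficking and storage genes were lower in 4 of 8 cases, GRAMD1B (-0.89), TMEM97 (-0.82), STARD3 (-0.57) and NPC2 (-0.49), and the lysosomal lipase gene LIPA was higher, by 0.50. Of the isoprenoid use genes FNTB (-1.10) and RABGGTA (-0.57) were lower and RABGGTB was higher, by 0.67.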

How the data were processed

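RNA of 11 samples of MDA-MB-231 was read on Affymetrix HG-U133 Plus 2.0 arrays, 1 array a sample. Per the labels' protocols the RNA was isolated on columns and labelled after the Affymetrix manual; the summary and normalization of the arrays are not given in the sources used here. The deposited values were taken as log2: they run from -4.20 to 6.69, and in 51.7% of 54675 probe sets 2 values close to 0 are of equal size and opposite sign (tolerance 1e-05), so probe sets were centred before deposit and the base of the log was assumed. Probe sets with exactly 1 symbol in the platform annotation (41091; 1801 had several) were averaged per gene. Each array was then shifted by its median deviation from the gene means (-0.10 to 0.10).

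Limma 3.58.1 in R 4.3.3 was fitted to all 19775 genes with a trend in the prior variance, additive terms for E2-BSA, ICI, G15, ethanol, estradiol and BSA, and the spike-in set (24 probe sets, largest gap 1.30, next 0.39). Tested on simulated data with independent noise, 3 runs of 19775 genes, it recovered 99% of E2-BSA changes of 1 and 90.7% of BSA changes of 1. It made 0 calls on unchanged data. With changes of 1 planted, 48 of 642 calls were false for E2-BSA and 31 of 575 for BSA. Changes as small as those fitted for the members with E2-BSA, the furthest being -0.20 for HSD17B7, were not simulated, so recovery at that size is not known. The members, lists and tests were chosen with earlier results of these data known. Every member was to be named, with all arrays for those that passed a test or ranked among the 6 largest mean differences on 1 side in all 4 pairs (5 were so placed), and the 3 highest and lowest in each single-array comparison; of the other lists, the genes that passed and the ends of each. Figures used Python 3.11.15.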

Additional observations from a re-analysis of the deposited data

Results flagged for a closer look

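The E2-BSA difference ran one way in both pairs without an antagonist and the other way in both antagonist backgrounds for 4 of 25 members (16%), a pattern that 11.8% of all genes also showed. MVD averaged -0.26 without and 0.45 with an antagonist, a difference of 0.71. MVK averaged 0.05 and -0.16 (difference -0.20), EBP 0.04 and -0.11 (difference -0.14), and SCAP 0.14 and -0.11 (difference -0.26). An interaction term, added after the data were seen and fitted with limma to the 8 arrays of the pairs, gave 0.72 ± 0.19 (SE) for MVD, the member with the smallest p (adjusted p = 0.973); it called 0 members and 0 genes, with 1 member and 744 genes at an unadjusted p under 0.05. The antagonist backgrounds had 1 pair each.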

How the results depend on the processing

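Of 396 recomputed values, 364 were taken as kept. Counts were kept when equal or of similar size, as with 4856 and, without the first control, 3439 genes called between the sets. Many kept counts were 0 in both. A median member was kept when it moved by less than 0.05, the SD of the median member over the 4 pairs. Named genes were kept when direction and side of the threshold stayed, whatever the size. IDI1 with BSA, so kept, went from -0.511 to -0.087 without _x_at and _s_at probe sets. No alternative called a member for E2-BSA, BSA, ethanol, ICI or G15. The control and E2-BSA duplicates alone, with a replicate block, gave a median member of -0.129 for E2-BSA. Without the set term, the median member moved to -0.026 (BSA), 0.126 (ethanol), 0.116 (ICI) and 0.073 (G15), HSD17B7 with G15 turned to 0.152, and 7 (BSA) and 0 (ethanol) genes were called. As deposited, against 0, the median member was -0.111 in the G15 pair, 0.096 with BSA, 0.143 with ICI and 0.195 with G15. The median gene itself then stood at -0.080, 0.192, 0.156 and 0.162 in these comparisons, so these moves are shifts of all genes and not of the members against them. In that setting 9 members were lower in all 4 pairs, where 8.26% of all genes were. Quantile normalization gave 3 such members, where 6.94% of all genes were lower in all 4 pairs, and 36 ethanol calls. The median of the probe sets gave -0.055 for BSA. Without _x_at and _s_at probe sets, which leaves 19 members, the median member was -0.066 (G15, fit) and -0.042 (BSA, single arrays), GGPS1 with BSA turned to 0.451, and 6 members passed between the sets. Without the genes of lowest range, the median member between the sets was -0.252.

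With 1 duplicate left out, all genes called ranged from 0 to 61 for BSA (0 without the second control, 26 without the second E2-BSA array), from 0 to 11 for ethanol (0 without either of these, 2 without the first control) and from 1521 to 3867 for the sets (1939 without the second control, 1521 without the second E2-BSA array), members called between the sets from 4 to 9, and the median member from 0.013 to 0.064 (ethanol) and -0.225 to -0.039 (sets). The causes were not tested. The number of arrays, with most groups at 1, limits every comparison.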
